A study of Bos taurus with 7 samples.

Results

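The genes described here are 32 interferon-stimulated genes other than chemokines and listed by symbol. A probe belonged to the set when the gene name in the scanner files equalled a listed symbol. This gave 28 genes with 1 probe each, out of 14952 gene names on the array. OAS1X, OAS1Y, IFI44 and IFI44L matched no probe by name and were not analysed here. A gene entered the fit, which held 12558 genes, if the scanner software rated its probe well above background on 3 arrays or more, and 24 of the 28 did. IFIT1, RSAD2, ZBP1 and IRF1 did not.

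The arrays hold total RNA of rumen epithelium from 7 Holstein calves, 1 array per calf. The HAY group (calves 9, 10 and 13) was provided with forage and the CON group (calves 8, 11, 12 and 14) was not. The series concerns forage and calf starter, ruminal pH and the epithelium during weaning, and its design text places the division into groups 3 weeks after weaning. Age, sex and the amount of feed eaten are not given in the labels used here. Each calf is a separate animal, and the 2 groups share tissue, breed and array design. The tissue is unsorted, so a probe reads the epithelium together with any stroma, vessels and immune cells beneath it.

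Interferons are secreted proteins that cells release on sensing viral or bacterial nucleic acid and other microbial signals. Type I and type III interferons bind their receptors and activate the kinases JAK1 and TYK2. These phosphorylate STAT2, which joins IRF9 in a complex that binds response elements in the promoters of the genes described here. The products degrade viral RNA, block translation or virus release, sense more nucleic acid, or feed back on the pathway. Epithelia that face a dense microbial community, as the rumen wall does, can express some of these genes at a resting level, which was not tested here.

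Most of the array's spots carried signal. Between 81.5 and 84.6% of spots per array were well above background and the median processed signal was 182.3 to 241.0 scanner units. The labelled tissue was checked against 18 keratinocyte markers: 17 had a probe and all 17 were detected well enough to be tested, with KRT5, KRT14 and TP63 among them. One of these, KRT4, was well above background on no HAY array. All arrays lay on 1 slide. HAY arrays filled row 1 and CON arrays row 2, so the effect of the slide row and that of forage cannot be told apart. A log2 signal of 0 here means a signal equal to the 75th percentile of the array. Levels of different probes are not compared with each other, since brightness depends on the probe as well as on the RNA.

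The probes of 2 paralog pairs are shown because, within each pair, the members gave different readings. They come from the scanner files and are 60 bases long, with coordinates on UMD_3.1. MX1 was read on the plus strand at chr1:143204603-143204662 and MX2, also on the plus strand, at chr1:143154986-143155045. OAS1Z was read on the minus strand at chr17:63670269-63670328 and OAS2, on the same strand, at chr17:63611781-63611840. Capitals mark the longest run of bases that the 2 probes of a pair have in common.
MX1: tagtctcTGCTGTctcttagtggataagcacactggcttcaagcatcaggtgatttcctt
MX2: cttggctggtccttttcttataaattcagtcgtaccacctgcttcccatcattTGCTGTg
OAS1Z: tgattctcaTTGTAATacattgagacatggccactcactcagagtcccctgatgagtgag
OAS2: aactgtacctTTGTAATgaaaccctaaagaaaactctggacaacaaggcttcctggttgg
The MX probes had 6 bases in a row in common and the OAS probes 7, out of 60. Against the probes of all other genes on the array, the longest run in common for any member was 15 bases, for IFIT5 and OAS2.

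The probes of the other 5 genes with a mean at least 2-fold lower in HAY are shown as well, because the values below turn on them. They lie at chr16:52714715-52714774 (ISG15, minus strand), chr21:20030746-20030805 (ISG20, plus strand), chr19:25759764-25759823 (XAF1, minus strand), chr26:11089515-11089574 (IFIT3, plus strand) and chr21:59336585-59336644 (IFI27, plus strand). In capitals is the hexamer AATAAA, the usual polyadenylation signal, which the XAF1 probe holds. On the probe strand alone, 4 of 28 member probes (14.3%) and 9.5% of all 15008 probes hold it. The exons and UTRs of these genes on that build were not used here.
ISG15: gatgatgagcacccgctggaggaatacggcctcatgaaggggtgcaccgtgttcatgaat
ISG20: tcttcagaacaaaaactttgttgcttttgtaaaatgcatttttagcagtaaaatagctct
XAF1: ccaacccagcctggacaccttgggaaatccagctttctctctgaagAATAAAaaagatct
IFIT3: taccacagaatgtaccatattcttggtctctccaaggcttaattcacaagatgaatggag
IFI27: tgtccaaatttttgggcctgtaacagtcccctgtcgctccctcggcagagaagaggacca

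Interferon-stimulated genes mostly had lower means in HAY, and 7 genes had the largest gaps. In bulk tissue, fewer cells of a type and less RNA per cell cannot be told apart, and this holds for every value below. MX1, ISG15, OAS1Z, ISG20, XAF1, IFIT3 and IFI27 each had a mean at least 2-fold lower in HAY. They are 29.2% of the 24 tested members, against 5.26% of all genes tested, and with no filter on dim probes 25.0% of 28 members against 5.07% of all genes. OAS1Z and IFIT3 met the filter through the CON arrays, where they were high, so the counts over tested members hold them by construction. Among the 20 members well above background on all 7 arrays the count was 5, or 25.0%, against 4.15% of all such genes. It was 4 of 24 after normexp background correction (MX1, ISG15, XAF1 and IFI27, against 2.12% of all genes) and 3 of 24 when HAY calf 13 was left out (MX1, OAS1Z and ISG20, against 3.46%). No member had a mean at least 2-fold higher, where 1.38% of all genes did. No member passed limma's test at an adjusted p under 0.05, which 0.00796% of all genes passed (1 gene, B4GALNT2, not an interferon-stimulated gene). The lowest adjusted p among members was 0.222. At an unadjusted limma p under 0.05, 7 members had lower values in HAY, or 29.2%, against 7.17% of all genes. These were MX1, OAS1Z, ISG20, IFI27, XAF1, IFIT3 and DTX3L, and with no filter they were 25.0% of 28 members against 6.31% of all genes. None had higher values at that threshold, against 6.79% of all genes.

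A lower mean in HAY was found for 19 of 24 members (79.2%) and for 45.4% of all genes tested, and with no filter for 22 of 28 members and 47.3% of all genes. The median log2 difference was -0.24 over the members and 0.03 over all genes. The 3 HAY calves lay wholly below the 4 CON calves in 4 members, or 16.7%, where 5.3% of all genes did so. No member had HAY wholly above CON, where 6.55% of all genes did. The other members lay closer together, and 15 of 24 differed by less than 0.5 log2 units.

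**Figure D1:**
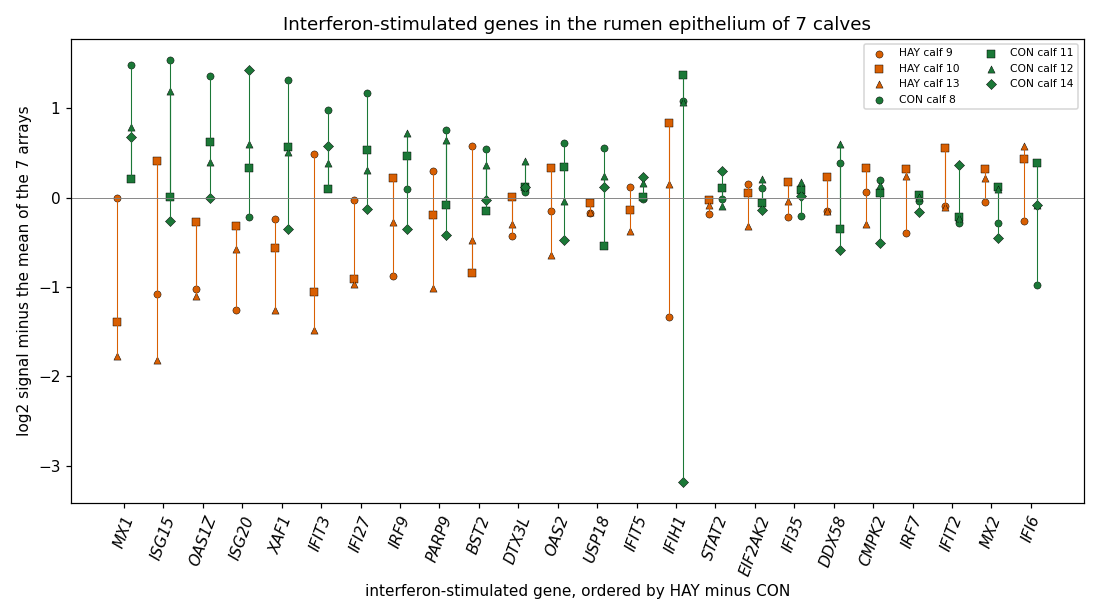
Log2 signal of the 24 tested interferon-stimulated genes in each calf, as the difference from the mean of the 7 arrays, with genes ordered by HAY minus CON; orange symbols are the 3 HAY calves, green symbols the 4 CON calves, and lines span each group. MX1, OAS1Z, ISG20 and DTX3L have no overlap between the groups, and IFIH1 has a CON calf far below the rest.

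Among the antiviral GTPases and the gene that blocks virus release, MX1 showed the largest difference of the whole set. It encodes a dynamin-like GTPase that traps viral nucleocapsids. In the HAY group its log2 signal was -2.31 in calf 9, -3.7 in calf 10 and -4.08 in calf 13. In the CON group it was -0.82 in calf 8, -2.1 in calf 11, -1.51 in calf 12 and -1.63 in calf 14. Every HAY calf was lower than every CON calf, by 0.21 at the closest, with HAY calf 9 near the CON range. The group means were -3.36 ± 0.93 (SD, n = 3) and -1.52 ± 0.53 (SD, n = 4). MX1 was thus 3.6-fold lower in HAY (-1.85 in log2, with SE 0.46 and adjusted p = 0.222 by limma), and its p ranked 246 of the 12558 genes.

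MX2, the paralog beside MX1, had a small difference of the other sign. Its values were -4.66, -4.29 and -4.39 for HAY and -4.89, -4.49, -4.51 and -5.06 for CON, listed in the same calf order, which holds from here on. The groups overlapped, and the HAY mean was higher by a log2 difference of 0.29 (with SE 0.19 and adjusted p = 0.528 by limma). After normexp, which used an offset of 50 that shrinks differences of dim probes, it was 0.05. BST2, or tetherin, which holds budding virions at the cell surface, stood at -3.28, -4.7 and -4.34 in HAY and -3.32, -4.01, -3.5 and -3.89 in CON. HAY calf 9 had the highest BST2 value of all calves and HAY calf 10 the lowest, so the log2 difference of -0.43 (SE 0.35) lay within the spread. It came to -0.84 if HAY calf 9 was left out and to -0.13 if HAY calf 10 was.

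Of the enzymes that act on RNA and nucleotides, OAS1Z and ISG20 had no overlap between the groups. OAS1Z is an oligoadenylate synthetase, which on binding double-stranded RNA makes the messenger that activates RNase L. It stood at -8.05, -7.3 and -8.13 in HAY and at -5.67, -6.41, -6.63 and -7.03 in CON. Its probe was dim, at most 12.0 scanner units in HAY and at most 36.4 in CON, and it was well above background in 1 of the 3 HAY and all 4 CON calves. The measured log2 difference was -1.39 (SE 0.35), and with normexp it was -0.36. Since most HAY readings were at background and the gene met the filter through CON, no fold or p is given. OAS2, a larger synthetase of the same family, had a difference of -0.26 (SE 0.32) with overlapping groups. It stood at -7.19, -6.71 and -7.68 in HAY and -6.43, -6.7, -7.08 and -7.52 in CON.

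ISG20, an exonuclease that degrades single-stranded RNA, followed another order of calves. Its values were -4.7, -3.76 and -4.01 in HAY and -3.65, -3.1, -2.84 and -2.01 in CON. The groups were 0.11 apart at the closest, and CON calf 14 was the highest and CON calf 8 the lowest of the CON calves. ISG20 was 2.39-fold lower in HAY (-1.26 in log2, with SE 0.4 and adjusted p = 0.272 by limma). Leaving out CON calf 14 gave -0.96 and leaving out CON calf 8 gave -1.51.

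CMPK2, a mitochondrial nucleotide kinase, differed by 0.06 (SE 0.23), with HAY values between -5.74 and -5.11 and CON values between -5.95 and -5.25. RSAD2, or viperin, lies 44.7 kb from CMPK2 and makes a chain-terminating nucleotide. It was not well above background on any of the 7 arrays, at 2.02 to 4.66 scanner units. The deposited coordinates of the RSAD2 probe span 45 bases, where the probe has 60.

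ISG15, a ubiquitin-like protein that is attached to other proteins and also secreted, had the second largest difference. Its signals were -2.79, -1.3 and -3.53 in HAY and -0.17, -1.71, -0.52 and -1.97 in CON. HAY calf 10 lay above CON calves 11 and 14, so the groups overlapped. The means were -2.54 ± 1.13 (SD, n = 3) and -1.09 ± 0.88 (SD, n = 4), so HAY was 2.73-fold lower (-1.45 in log2, with SE 0.62 and adjusted p = 0.359 by limma). Leaving out HAY calf 10 gave -2.07 and leaving out HAY calf 13 gave -0.95.
USP18, the protease that removes ISG15 and restrains the interferon receptor, differed by -0.23 (SE 0.25). Its 3 HAY values, -3.73, -3.61 and -3.71, were close together and inside the CON values of -3, -4.1, -3.31 and -3.43.

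The IFIT genes encode proteins with tetratricopeptide repeats that bind viral RNA and hold it from the ribosome. IFIT3 stood at -6.7, -8.25 and -8.67 in HAY and -6.21, -7.09, -6.8 and -6.61 in CON. HAY calf 9 lay inside the CON range while the other HAY calves lay below it. The measured log2 difference was -1.19 (SE 0.46). The probe was dim, at most 24.9 scanner units, and was well above background in 1 of the 3 HAY and all 4 CON calves, so no fold or p is given here either. After normexp the difference was -0.29. It was -1.78 if HAY calf 9 was left out and -0.79 if HAY calf 13 was.

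IFIT2 showed a small difference in the other direction, 0.21 (SE 0.24), with values of -5.34, -4.69 and -5.35 in HAY and -5.53, -5.46, -5.47 and -4.88 in CON. HAY calf 10 and CON calf 14 were the high calves. With normexp the difference was -0.0035. IFIT5 was close to even, at -0.97, -1.23 and -1.46 in HAY and -1.1, -1.08, -0.93 and -0.86 in CON (log2 difference -0.23, SE 0.16). IFIT1 was not well above background on any array, at 2.44 to 3.44 scanner units. EIF2AK2, the kinase PKR that halts translation on double-stranded RNA, differed by -0.07 (SE 0.17), with all calves between -3.7 and -3.17.

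Among the IFI proteins and XAF1, the differences of IFI27 and XAF1 were the largest. IFI27, a mitochondrial and nuclear-envelope protein widely used as an interferon marker, gave 0.35, -0.54 and -0.59 in HAY and 1.55, 0.91, 0.69 and 0.25 in CON. HAY calf 9 lay just above CON calf 14, and the other HAY calves lay below all CON calves. IFI27 was 2.16-fold lower in HAY (-1.11 in log2, with SE 0.35 and adjusted p = 0.272 by limma).
XAF1, an antagonist of the caspase inhibitor XIAP, gave -2.72, -3.04 and -3.74 in HAY and -1.16, -1.92, -1.97 and -2.83 in CON. Here the overlap came from CON calf 14, which lay just below HAY calf 9. XAF1 was 2.29-fold lower in HAY (-1.2 in log2, with SE 0.4 and adjusted p = 0.288 by limma).

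IFI35, which binds the partner protein NMI, was nearly level among the calves, between 1.66 and 2.05 in both groups, with a difference of -0.04 (SE 0.16). IFI6, a membrane protein of mitochondria and endoplasmic reticulum, had the most positive difference of the set, 0.44 (SE 0.34). It was dim and its groups overlapped: -6.75, -6.06 and -5.92 in HAY and -7.47, -6.11, -6.57 and -6.58 in CON. With normexp the IFI6 difference was -0.03, and its direction therefore depends on the background correction.

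Of the nucleic acid sensors, neither tested member differed beyond the spread. IFIH1, or MDA5, the sensor of long double-stranded RNA, varied more than any other member, over 4.55 log2 units. It stood at -6.29, -4.12 and -4.81 in HAY and -3.88, -3.59, -3.89 and -8.14 in CON. CON calf 14 gave 6.95 scanner units, not well above background, where the other CON calves gave 103 to 155, and HAY calf 9 was the next lowest. The log2 difference was -0.2 (SE 1.14), which became -1.28 when CON calf 14 was left out and 0.41 when HAY calf 9 was. DDX58, or RIG-I, the sensor of RNA with a free triphosphate end, differed by -0.03 (SE 0.31), from -3.82 to -3.43 in HAY and from -4.25 to -3.06 in CON. ZBP1, the sensor of left-handed double helices, was not well above background on any array.

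The transcription factors of the pathway had overlapping groups throughout. STAT2 gave 0.55, 0.71 and 0.65 in HAY and 0.72, 0.85, 0.64 and 1.03 in CON (log2 difference -0.17, SE 0.14). IRF9, its DNA-binding partner, gave -5.52, -4.43 and -4.92 in HAY and -4.55, -4.18, -3.92 and -5 in CON. The IRF9 groups overlapped, with HAY calf 9 lowest and CON calf 12 highest, and differed by -0.54 (with SE 0.33 and adjusted p = 0.494 by limma). Leaving out HAY calf 9 gave -0.26 and leaving out HAY calf 10 gave -0.81. IRF7, which amplifies the production of type I interferon, gave 1.53, 2.25 and 2.17 in HAY and 1.89, 1.96, 1.94 and 1.77 in CON (log2 difference 0.1, SE 0.2). The CON calves lay close together in IRF7, and the HAY calves spread on either side of them. IRF1, a factor of the interferon gamma response, was well above background only on the array of CON calf 8. The deposited coordinates of its probe span 1337 bases of the genome.

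PARP9 and DTX3L encode a complex that modifies histones and viral proteins and enhances interferon responses. DTX3L, the ubiquitin ligase, had a small difference with little spread: -5, -4.56 and -4.86 in HAY and -4.51, -4.45, -4.16 and -4.45 in CON. HAY lay wholly below CON, by 0.05 at the closest. The log2 difference was -0.41 (with SE 0.16 and adjusted p = 0.328 by limma), or 1.33-fold lower in HAY. PARP9, the ADP-ribosyltransferase subunit, differed by -0.52 (SE 0.39), with more spread: -5.51, -6.01 and -6.82 in HAY and -5.06, -5.9, -5.17 and -6.23 in CON. Without CON calf 8 and HAY calf 13 the PARP9 difference was 0.01 and that of DTX3L -0.43.

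**Figure D2:**
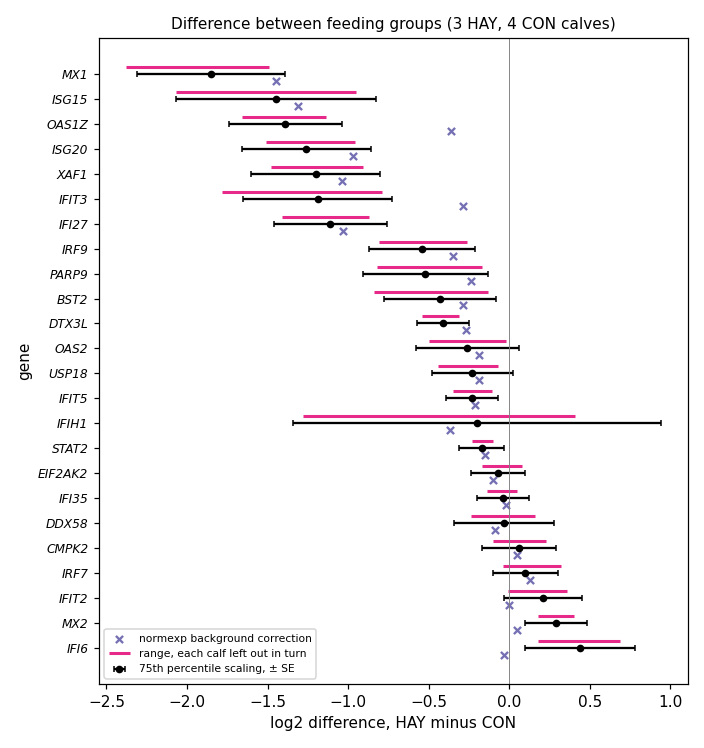
Log2 difference HAY minus CON for each tested gene (points with bars of ± SE from limma), the same with normexp background correction (crosses), and the range when each calf is left out in turn (pink lines). The 7 genes at the top keep negative differences in all of these, while OAS1Z and IFIT3 shrink to -0.36 and -0.29 with normexp.

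The 7 genes with the largest differences shared their extreme calves. They were picked for low HAY means in the same arrays, which favours a CON calf on top and a HAY calf at the bottom. Shares of all genes with the same extreme calves are not given. CON calf 8 was the highest calf in 6 of the 7 and HAY calf 13 the lowest in 6 of the 7. Averaged over these genes, the distance of a calf from the 7-array mean, in log2, was 1.09 for CON calf 8 and -1.28 for HAY calf 13. HAY calves 9 and 10 lay at -0.45 and -0.59, while CON calves 11, 12 and 14 lay at 0.34, 0.6 and 0.28. ISG20 was the exception on the high side, with CON calf 14 on top and CON calf 8 at -0.21, and also on the low side, with HAY calf 9 at the bottom. In the other 17 genes CON calf 8 was highest in 3 and HAY calf 13 lowest in 4. The choice of the 7 genes bears on this contrast, so nothing is read from it.

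Over all 24 genes the mean deviation was -0.26, -0.06 and -0.5 in HAY, and 0.43, 0.17, 0.36 and -0.14 in CON. The groups overlapped in this mean, since CON calf 14 lay below HAY calf 10. Without CON calf 8 and HAY calf 13 together, 3 of 24 members (ISG20, OAS1Z and MX1) had lower values in HAY at an unadjusted limma p under 0.05, against 3.46% of all genes. The log2 difference of MX1 was then -1.26, of OAS1Z -0.98, of XAF1 -0.64, of ISG15 -0.65, of IFIT3 -0.64 and of IFI27 -0.71, while that of ISG20 was -1.58. Without HAY calf 13 alone the count at that threshold was also 3, against 3.95% of all genes. Both counts hold OAS1Z by construction, since it met the filter through the CON arrays and was mostly at background in HAY.

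**Figure D3:**
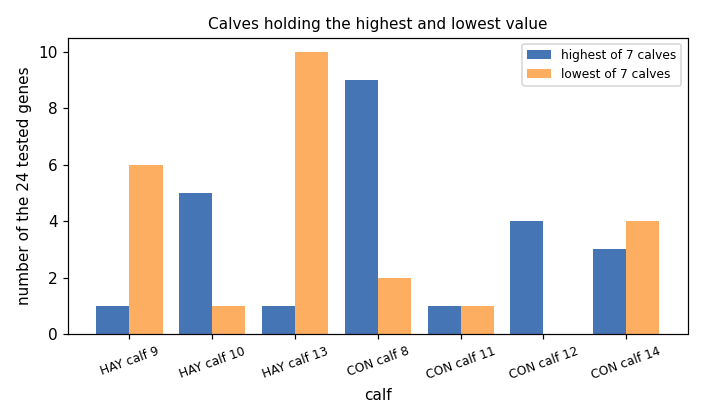
Number of the 24 tested genes in which each calf had the highest (blue bars) or the lowest (orange bars) value of the 7 calves. CON calf 8 was highest in 9 genes and HAY calf 13 lowest in 10, while CON calf 12 was lowest in none. The same shares over all genes are not given.

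The slide column could be compared within, since columns 2, 3 and 4 each held 1 array of each group. Of 24 members, 15 were lower in HAY in column 2 (calf 9 against 11), 16 in column 3 (10 against 12) and 17 in column 4 (13 against 14). The share of all genes lower in HAY was 53.9, 45.4 and 48.8% in these columns. ISG15, ISG20, MX1, OAS1Z, IFI27, XAF1 and DTX3L were lower in HAY in all 3 columns, which is 7 of 24 members, where 18.9% of all genes were. For MX1, OAS1Z, ISG20 and DTX3L this follows from the lack of overlap between the groups, and the columns hold the same arrays as the comparison above. MX1 differed by -0.21, -2.19 and -2.46, and XAF1 by -0.8, -1.07 and -0.91. With the column as a block, a fit in which CON calf 8 drops out of the comparison because it is alone in column 1, the lowest adjusted p among members was 0.121, for XAF1 and ISG20.

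Several members lie next to each other in the genome, and their differences are given side by side. MX1 and MX2 lie 49.6 kb apart on chromosome 1, OAS1Z and OAS2 58.4 kb apart on chromosome 17, PARP9 and DTX3L 15.1 kb apart on chromosome 1, and the IFIT probes between 17.3 and 56.2 kb from each other on chromosome 26. These pairs were looked at after the values had been seen, so no test is given. MX1 minus MX2 ranged from 0.31 to 2.35 in HAY and from 2.39 to 4.06 in CON, which is -2.14 between the means. OAS1Z minus OAS2 ranged from -0.85 to -0.46 in HAY, where OAS1Z was mostly at background, and from 0.29 to 0.76 in CON. The groups did not overlap in these pairs.
IFIT2 minus IFIT3 was higher in HAY by 1.4 and IFIT3 minus IFIT5 differed by -0.97, again with IFIT3 mostly at background in HAY. IFIT2 minus IFIT5 differed by 0.43 and DTX3L minus PARP9 by 0.11. The groups overlapped in these 4 pairs.

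Upstream of these genes, the ligands were barely measured. Of 20 listed interferon ligand symbols 8 had a probe and 2 were tested, IFNB3 and IFNAC. IFNB3, an interferon beta gene, differed by 0.31 (with SE 0.13 and adjusted p = 0.362 by limma), and IFNAC, an interferon alpha gene, was well above background on the 3 HAY arrays and on no CON array (at least 1.24-fold higher in HAY, and no p is given, since those 3 arrays brought it into the fit). IFNG, the type II ligand, was not well above background on any array.
All 6 interferon receptor genes on the array were tested. HAY lay wholly below CON in 2 of them and wholly above in 2, beside 5.3 and 6.55% of all genes. Nothing is read from so small a count. IFNAR2, a chain of the type I receptor, stood at -3.63, -3.98 and -4.24 in HAY and -3.03, -3.47, -3.2 and -3.26 in CON, lower in every HAY calf (-0.71 in log2, with SE 0.19 and adjusted p = 0.233 by limma). IL28RA, the specific chain of the type III receptor, went the other way, with -4.84, -4.45 and -4.41 in HAY and -5.65, -4.95, -5.34 and -5.17 in CON (0.71 in log2, with SE 0.2 and adjusted p = 0.255 by limma).

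Of 17 tested kinases, STATs and feedback inhibitors, none passed the adjustment, and at an unadjusted limma p under 0.05 there were 2 lower and 2 higher in HAY. The shares over all genes are 7.17 and 6.79%, and nothing is read from so small a count. STAT4, which transmits interleukin 12 and type I interferon signals in lymphocytes, differed by -1.35 and STAT3 by -0.49. SOCS1, the feedback inhibitor of JAK kinases, differed by 0.59, and the phosphatase PTPN6 by 0.88. Among 17 tested sensing adaptors and kinases, 12 had lower and 5 higher means, where 45.4% of all genes had lower means. At an unadjusted p under 0.05, TLR7, TMEM173 (STING) and IRF8 had differences of -1.28, -1.13 and -1.38, and TRIM25 had one of 0.54. The shares of all genes at that threshold are those given above. TLR7 was well above background on 1 HAY and 3 CON arrays, so it met the filter through CON.

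Other interferon-induced genes were taken from a further list. Of its 41 tested genes 27 had lower means in HAY, where 45.4% of all genes did, with a median of -0.22, and none passed the adjustment. At an unadjusted limma p under 0.05 were 10 lower and 1 higher, beside 7.17 and 6.79% of all genes. Of the 10, GBP5, HERC6 and PSMB9 met the filter through the CON arrays, so the count holds them by construction. No count without the filter is given for this list. The virus-entry inhibitors IFITM2 and IFITM3 had no overlap between groups, with differences of -1.08 (SE 0.27) and -0.86 (SE 0.26). PLSCR1, a membrane scramblase with antiviral activity, differed by -1.17, the immunoproteasome subunit PSMB8 by -1.07, and the guanylate-binding protein GBP5 by -3.5, with 1 HAY array well above background for GBP5. PSMB9, another such subunit, was well above background on no HAY array and was at least 1.2-fold lower there. The restriction factor SAMHD1 differed by -0.75, and HERC6, SAMD9 and LOC512486 by -1.09, -1.66 and -2.75, with HERC6 well above background on 1 HAY array, while PLAC8 differed by 1.06. Of the interferon-induced chemokines, CXCL10 differed by 0.39 (SE 0.67). CXCL11 was well above background on no HAY array and 3 CON arrays, and was at least 1.81-fold lower in HAY.

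All tested markers of muscle, fibroblasts and endothelium had lower means in HAY. Summed over each list in units of the array's 75th percentile, smooth muscle markers (9 of 9 lower in HAY) ranged from 15.5 to 36.3 in HAY and from 36.6 to 85.6 in CON. Fibroblast markers (11 of 11 lower) ranged from 15.3 in HAY calf 13 to 60.5 in HAY, and from 38.5 to 211 in CON, where CON calf 8 was highest. Endothelial markers (11 of 11 lower) ranged from 2.57 to 7.99 and from 5.82 to 13.3. CON calf 8 was highest and HAY calf 13 lowest in these 3 sums, and also in the general leukocyte sum given below. The extreme calves of the 2-fold lower members are not set beside these, since those members were picked for low HAY means. None of the markers passed the adjustment. At an unadjusted limma p under 0.05 were the muscle genes ACTA2, DES, TAGLN, CNN1, MYLK, SMTN and CALD1, with differences of -3.25 (DES, well above background on 2 of 3 HAY arrays) to -0.55 (SMTN). The matrix and fibroblast genes LUM, POSTN, PDGFRA, FBLN1, SPARC and FAP had -2.03 (LUM) to -0.99 (FAP), and the endothelial genes PECAM1, TIE1 and ENG -1.05, -0.72 and -0.73.

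Several immune lists had lower sums in HAY too. Macrophage and dendritic cell markers (8 of 9 lower) summed to 6.41 to 6.92 in HAY and 9.9 to 15.6 in CON, with no overlap, and were highest in CON calf 11 and lowest in HAY calf 10. Those at an unadjusted p under 0.05 were CD1E (-1.88), FCGR3A (-1.59), CD163 (-1.29), CSF1R (-1.28), CD14 (-1.16), AIF1 (-0.91), FCER1G (-0.76) and TYROBP (-0.56). General leukocyte markers (7 of 7 lower) summed to 3.92 to 5.28 in HAY and 5.52 to 9.98 in CON, with no overlap. As in the muscle, fibroblast and endothelial sums, CON calf 8 was highest and HAY calf 13 lowest. Past that p were CORO1A (-1.49), ARHGDIB (-1.19), LAPTM5 (-1.17), CD53 (-0.99) and LCP1 (-0.9). Of 4 tested plasmacytoid dendritic cell markers 3 were lower, with TCF4 at -1.08 beside the IRF8 and TLR7 given above, and sums of 0.91 to 3.03 against 2.27 to 4.74. Their defining markers LILRA4, SPIB and TLR9 were not detected well enough to be tested. Granulocyte markers (3 of 4 lower) summed to 350 to 359 and 399 to 488, which rests nearly all on S100A12 and S100A8, genes that keratinocytes can also express. S100A8 differed by -1.62, S100A12 by -0.14, CSF3R by -0.38 and CXCR2 by 0.21. ELANE, MPO and S100A9 were likewise not tested.
T and NK cell markers overlapped, with 8 of 14 lower and sums of 2.26 to 3.64 in HAY, highest in HAY calf 13, and 2.6 to 3.38 in CON, with LCK at -0.52 and NKG7 at -0.9 and with CD4, CD8B and IL7R not tested. CD3E was well above background on no HAY array and was at least 2.12-fold lower in HAY. B and plasma cell markers went the other way (5 of 7 higher), 12.1 to 18.5 against 7.32 to 12.7, with MS4A1, CR2 and POU2AF1 not tested. Keratinocyte markers (11 of 17 higher and 6 lower in HAY, median 0.08) overlapped, 837 to 909 in HAY and 705 to 869 in CON, where CON calf 8 was lowest. Of these, KRT4 was at least 3.63-fold lower in HAY. The part of these cell markers in the interferon-stimulated gene values was not tested.

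**Figure D4:**
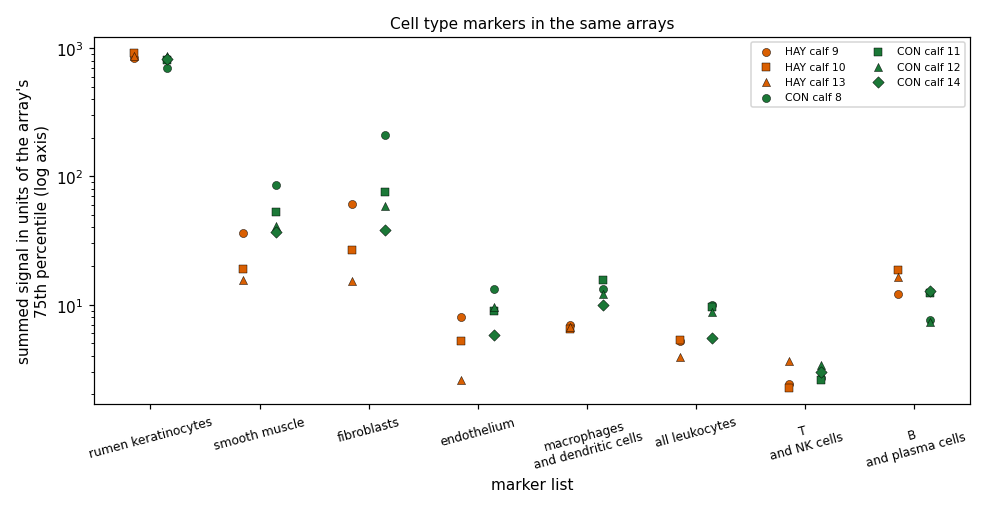
Summed signal of the tested genes of 8 cell type marker lists in each calf, on a log axis in units of the array's 75th percentile; orange symbols are HAY calves and green symbols CON calves. Macrophage and dendritic cell markers do not overlap between groups, fibroblast markers span 15.3 to 211, and keratinocyte markers lie between 705 and 909.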

How the data were processed

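Cyanine 3 labelled RNA from the total RNA of each calf was read on single-colour Agilent arrays with Agilent Feature Extraction 9.5, per the submitters' processing notes. The deposited intensity values were background-subtracted and detrended within each array, per the file headers, and not scaled between arrays. Control and outlier spots were left out here, spots of a probe were averaged as log2, and each array's 75th percentile was subtracted. The deposited log2 value table differed from these values by a constant per array of -0.0201 to -0.00844 (Pearson correlation 1, column medians -3.2 to -3.08), which settled its scale and direction. The brightest probe of a gene name was kept. Genes well above background on at least 3 arrays were fitted with limma 3.58.1 in R 4.3.3 (HAY against CON, Benjamini-Hochberg adjustment over 12558 genes, threshold 0.05), after the fit was tested on simulated data. Names follow the scanner files. For the other lists, which were matched on the file's name or a RefSeq symbol, 11194 probes matched an accession of assembly ARS-UCD2.0.

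Members, lists and tests were chosen with earlier results of these data known. All members are named, with values in each calf at least for those at an unadjusted p under 0.05, without overlap, at least 2-fold different, with the smallest p of their role, or paralogs of these. Genes of the other lists are named at an unadjusted p under 0.05, apart from a result that is not reported here, and IFNB3, IFNAC, IFNG and CXCL10 were added after their values were seen. A probe well above background on no array of a group is given as a bound, from each array's lowest signal well above background. Neighbour pairs, and the count of 2-fold lower members over the alternatives, were chosen after values were seen. The p-values measure the spread between calves. Alternatives were normexp (offset 50), median centring, quantile normalization, other probe filters and summaries, the deposited table, the column block, another eBayes setting, and calves left out. Promoter sequences, exon annotation and the planned promoter motif search were not used here. The number of arrays limits the precision.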

Additional observations from a re-analysis of the deposited data

Results flagged for a closer look

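In the 4 CON calves, 2 of the 24 tested genes had 1 calf far from the others, and chance alone gives about 1 in 20 groups. Both concerned CON calf 14. IFIH1 was at -8.14 there, against -3.89 to -3.59 in the other CON calves, and IFIT2 was at -4.88, against -5.53 to -5.46.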

How the results depend on the processing

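Over 18 alternatives, no member passed limma's adjusted p of 0.05 in any, and 14 of 24 members kept their direction in all they were part of, among them the 7 with the largest differences. The count of all genes past the threshold, 1, became 4 with quantile normalization, 2 with the slide column as a block, 5 without CON calf 8 and HAY calf 13, and 1 to 21 when single calves were omitted (21 if CON calf 14 was, 7 if HAY calf 9 was, 4 if CON calf 8 was and 2 if HAY calf 13 was). The 7 members at least 2-fold lower (against 5.26% of all genes) became 4 with normexp (2.12%) and 2 without CON calf 8 and HAY calf 13 (2.68%). They became 3 to 7 when single calves were omitted, the 3 being for HAY calf 13 (3.46%). The 7 members lower at an unadjusted limma p under 0.05 (against 7.17% of all genes) became 3 without CON calf 8 and HAY calf 13 (3.46%). They became 3 to 9 when single calves were omitted, the 3 being for HAY calf 13 (3.95%) and the 9 for CON calf 14 (9.44%). The 4 members without overlap became 3 with median centring, with quantile normalization or among probes well above background throughout. Counted in either direction they became 4 to 12 when single calves were omitted. The count reached 12 for HAY calf 9 (31.0% of all genes) and 8 for CON calf 14 (22.9%). Of these, 9 and 7 had HAY wholly below CON, where 13.4 and 11.7% of all genes did, and the rest had HAY wholly above. The median of the members lay between -0.44 and -0.13. Of all genes at an unadjusted p under 0.05, 853 were higher and 901 lower, but 1239 and 774 with median centring and 666 and 1145 with the column block.

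Reversals concerned 10 members with differences of at most 0.52 in size. With normexp IFIT2 had -0.0035 and IFI6 -0.03. With median centring IFI35 had 0.02 and DDX58 0.03, the latter also with quantile normalization. With the column block IFIH1 had 0.13 and DDX58 0.09. Without CON calf 8 and HAY calf 13 OAS2 had 0.15, IFIH1 0.002, DDX58 0.15, EIF2AK2 0.1 and PARP9 0.01. Omitting single calves gave ranges of -0.14 to 0.05 for IFI35, -1.28 to 0.41 for IFIH1, -0.24 to 0.16 for DDX58, -0.01 to 0.36 for IFIT2, -0.04 to 0.32 for IRF7, -0.1 to 0.23 for CMPK2 and -0.17 to 0.08 for EIF2AK2. The cause was not tested. OAS1Z, IFIT3, IFIH1 and OAS2 were not well above background on all 7 arrays, which limits their values. No analysis paired by calf was possible because the groups share no calf number, and the slide column was fitted as a block.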
